A study of Macaca fascicularis and Macaca mulatta and Papio anubis with 20 samples.

Results

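S100A8, S100A9 and CAMP are 3 of the 22000 features counted in the *Macaca fascicularis* sections of a spatial study of primate dorsal root ganglia, and 3 of the 15068 that carry a symbol. They were chosen by symbol because they had led a small group of spots when these sections were clustered earlier, so their concentration in few spots is given here as a description, with no test. Each symbol matched 1 feature in every section, in *M. fascicularis* ENSMFAG00000039568 for S100A8, ENSMFAG00000045130 for S100A9 and ENSMFAG00000032837 for CAMP. The gene set is called by its symbols, since most other genes of the granulocyte were close to 0 in these sections, as given further on.

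S100A8 and S100A9 are small calcium-binding proteins that pair to form calprotectin, an abundant protein of the neutrophil cytosol, which binds zinc and manganese and can act through the receptor TLR4 when released. CAMP encodes the precursor of the antimicrobial peptide cathelicidin, which is packed with lactoferrin into the secondary granules while neutrophils mature in the bone marrow. Monocytes also carry S100A8 and S100A9, and inflamed keratinocytes make all 3. A dorsal root ganglion holds sensory neuron cell bodies, satellite glia and Schwann cells inside a connective tissue capsule, and its vessels are leakier than those of the brain.

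The ganglia were fresh frozen, and the assay was Visium, in which a section is laid over a grid of spots that bind its transcripts, and a unique molecular identifier (UMI) lets every bound molecule be counted a single time. A spot can hold several cells of different types. Sections were 10 µm thick, taken 100 µm apart and permeabilised for 12 min, per the labels' protocols. The 20 sections fell under 6 title codes, each treated as 1 specimen, which the labels do not state. In *M. fascicularis* there were 4 specimens of 4 sections each, 1 female and 1 male in each of 2 labelled batches, with no treatment, genotype or age given. The other 2 specimens, labelled *M. mulatta* and *Papio anubis*, had 2 sections each, were labelled batch 2 and carried no sex. Their feature identifiers were crossed: the sections labelled *M. mulatta* held ENSPANG identifiers, which belong to the baboon, and those labelled *P. anubis* held ENSMMUG identifiers, so label and file may be swapped between them. Sections of 1 specimen are not independent animals, and 1 animal stood for each sex in each batch.

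Total UMIs under tissue were between 1136433 and 7073134 in the 16 *M. fascicularis* sections, 190376 and 264661 in the sections labelled *M. mulatta*, and 595020 and 12595205 in those labelled *P. anubis*. Section 3 of the male of batch 2 entered through its table of gene totals alone, so analyses of spots covered 15 *M. fascicularis* sections and 19 in all. The summed neuron list, with 14 of 16 genes measured, averaged between 22392 and 30894 UMIs per 1000000 (CPM) in the 4 *M. fascicularis* specimens. In the sections labelled *M. mulatta* it was at 6605 and 15175 CPM.

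Levels were first set side by side by section, as UMIs of a gene per 1000000 UMIs of the section (CPM). S100A8 stood at 18.0, 9.83, 6.23 and 51.6 CPM in the 4 sections of the female of batch 1, and at 6.07, 6.20, 12.6 and 12.3 CPM in the male of batch 1. In batch 2 it stood at 40.4, 13.5, 36.9 and 38.1 CPM in the female, and at 256, 451, 419 and 371 CPM in the male. The 4 sections of the male of batch 2 were thus all above every other section. The female of batch 1 overlapped both the male of batch 1 and the female of batch 2, which did not overlap each other. The means were 21.4 ± 20.7 CPM (SD, n = 4 sections) and 9.30 ± 3.66 in batch 1, and 32.3 ± 12.6 and 374 ± 85.5 in batch 2, each time with the female first. Without its section 4 the female of batch 1 averaged 11.4 CPM for S100A8, 11.8 for S100A9 and 5.78 for CAMP.

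S100A9, the partner of S100A8 in calprotectin, followed the same order of specimens. It was at 29.2, 3.28, 2.82 and 48.6 CPM in the female and 1.93, 5.16, 12.4 and 8.20 CPM in the male of batch 1. In batch 2 it was at 44.2, 18.7, 32.8 and 34.8 CPM in the female and 91.0, 206, 310 and 258 CPM in the male. The male of batch 2 again lay above all other sections, and the female of batch 1 spread so widely that it overlapped both the male of its own batch and the female of batch 2. Its means were 21.0 ± 22.1 and 6.92 ± 4.45 CPM in batch 1 and 32.6 ± 10.5 and 216 ± 93.5 CPM in batch 2 (SD, n = 4 sections, female first).

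CAMP did not share the high level of that male. It was at 11.8, 2.57, 2.97 and 26.3 CPM in the female and 2.48, 2.68, 11.3 and 8.20 CPM in the male of batch 1. In batch 2 it was at 4.88, 3.92, 6.76 and 5.27 CPM in the female, and at 0.31, 0.53, 11.8 and 3.52 CPM in the male. All 4 specimens overlapped for CAMP. The 8 sections of batch 2 overlapped the 8 of batch 1 for each of the 3 genes, where 1.93% of 17322 features lay wholly above and 4.02% wholly below. In the male of batch 2, 24 of the 30 CAMP UMIs came from section 3, the one without spot counts, so that only 6 could be placed on spots.

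**Figure D1:**
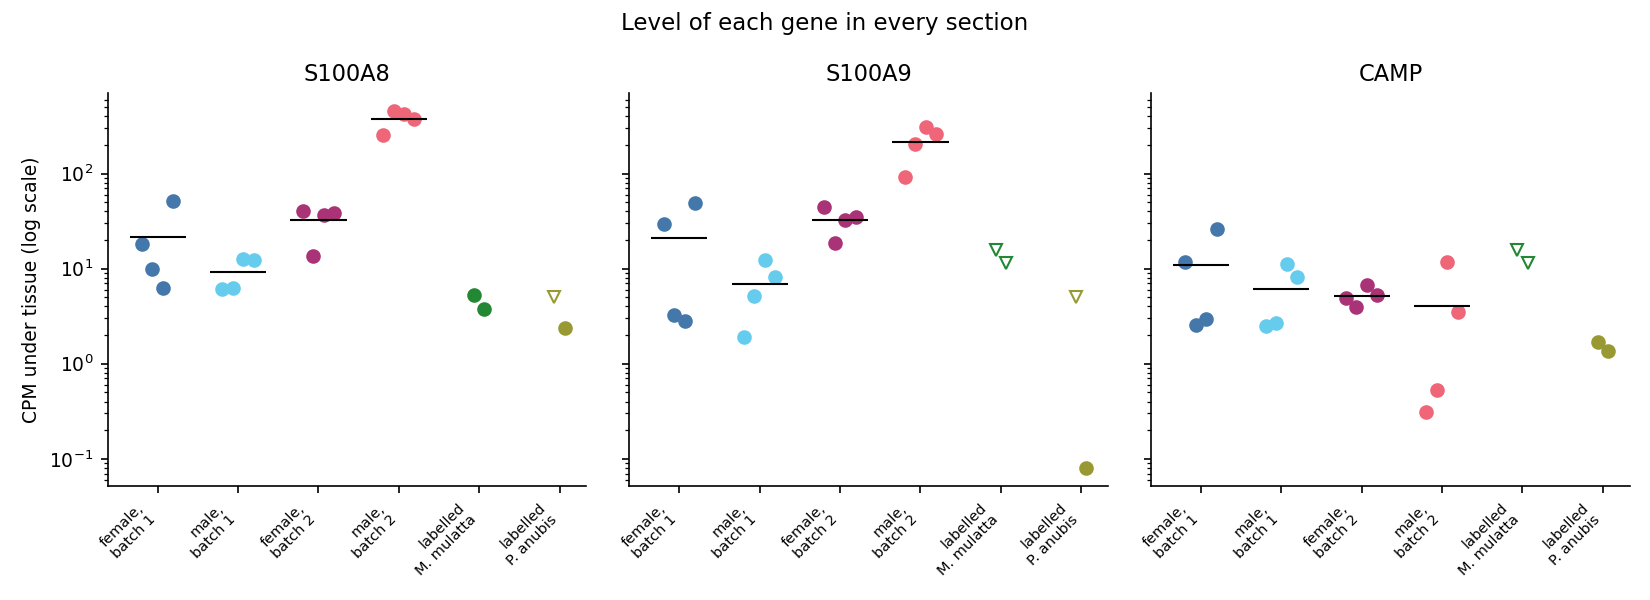
Points are single sections, as CPM under tissue on a log axis, for S100A8, S100A9 and CAMP in the 6 specimens, and black lines are means over the 4 sections of an *M. fascicularis* specimen. Open triangles stand for sections with 0 UMIs and are drawn at the level of 3 UMIs. The male of batch 2 lies between 256 and 451 CPM for S100A8 and between 0.31 and 11.8 CPM for CAMP.

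In the specimens of the other 2 labels the 3 genes were at or near the limit of counting. The sections labelled *M. mulatta* held 1 UMI of S100A8 each, 5.25 and 3.78 CPM, and none of S100A9 or CAMP, where 3 UMIs would be 15.8 and 11.3 CPM. At that depth an S100A9 or CAMP level like that of the male of batch 1, at 12.4 CPM or less, was not detectable in the first of these sections, whereas the S100A9 level of the male of batch 2, at 91.0 CPM or more, lay above the limit in both. The shallow section labelled *P. anubis* held 1 UMI of CAMP and none of the others, with 3 UMIs at 5.04 CPM. The deep one held 30 UMIs of S100A8, 1 of S100A9 and 17 of CAMP, which is 2.38, 0.08 and 1.35 CPM. The S100A8 level of that section lay below all 16 *M. fascicularis* sections, as did its S100A9 level. Gene models differ between the 3 sets of identifiers, and their part in these levels was not tested.

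The batch comparison asked how the levels of batch 2 stood against batch 1 over whole sections, with sections summed to 4 libraries, 1 for each specimen, and sex as a covariate. S100A8 was higher in batch 2 by 3.07 ± 0.96 on the log2 scale (fitted difference ± SE) and S100A9 by 2.96 ± 0.79, while CAMP was lower by a fitted value of -0.71 ± 0.39. None of the 3 passed the threshold of 0.05 on the Benjamini-Hochberg adjusted p of edgeR's quasi-likelihood test: adjusted p was 0.145 for S100A8, 0.0997 for S100A9 and 0.380 for CAMP. Of 12650 features tested, 2.88% passed, 1.26% higher and 1.61% lower, and the adjusted p of S100A9 was the closest of the 3. The size of the first 2 differences rested on the male of batch 2. Without it, and without the sex term, S100A8 differed by 1.32 ± 0.18 and S100A9 by 1.65 ± 0.20. Leaving out any 1 of the other 3 specimens, again without the sex term, gave S100A8 between 3.39 and 4.69 and S100A9 between 2.84 and 4.11. Each of these fits left a single specimen in 1 batch, so only the sizes are given. With all 4 specimens kept, the call turned for both genes when section 4 of the female of batch 1 was left out. S100A8 was then at 3.67 (adjusted p = 2.98e-05, edgeR) and S100A9 at 3.71 (8.69e-07). For S100A9 it also turned without section 1 of that female or section 1 of the female of batch 2. The fit left 1 degree of freedom among samples, and batch also stood for other animals and for another Space Ranger version, so these cannot be told apart.

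The sex comparison, from the same fit, gave 0 features past the threshold (0.0% of 12650), with 169 at an unadjusted p under 0.05 and 0 by DESeq2. The fitted difference of male over female was 1.26 ± 0.96 for S100A8, 0.71 ± 0.78 for S100A9 and -0.59 ± 0.39 for CAMP, with an adjusted p of 0.998 for each in the edgeR test. The direction was not shared by the batches. In batch 1 the mean of the male lay below that of the female for S100A8 and S100A9, and in batch 2 every male section lay above every female one. The difference of male over female was larger in batch 2 by 4.55 ± 0.69 for S100A8 (adjusted p = 0.000299, edgeR) and 4.04 ± 0.92 for S100A9 (0.00628), against 0.16 ± 1.16 for CAMP (0.944), where 18.0% of 11063 features passed (9.93% higher, 8.1% lower). That fit took sections as samples, 4 of which share each specimen, so its p-values are too small.

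Summed levels of cell type lists were set side by side by batch, with no test. The keratinocyte list, with 6 of 12 genes measured, summed to between 3.41 and 7.73 CPM in the sections of batch 1 and between 10.6 and 45.6 CPM in those of batch 2. The adipocyte list, 10 of 10 measured, separated the batches too and was highest in the male of batch 2, with specimen means of 1377 and 1289 CPM in batch 1 and 2540 and 4857 CPM in batch 2 (female first). The means of the fibroblast list, 11 of 11 measured, were 5742 and 4776 CPM against 2886 and 1906 CPM, and those of the myelinating Schwann cell list, 9 of 10 measured, 4986 and 4628 CPM against 1689 and 2323 CPM. Sections of the 2 batches overlapped for both. The lowest fibroblast section of the female of batch 1 was at 3161 CPM, and the highest of the female of batch 2 at 3375 CPM. For the Schwann cell list the lowest of that first female was 2604 CPM, and the highest of the male of batch 2 was 3200 CPM. The macrophage list, 14 of 15 measured, was lower in batch 2, with specimen means of 2476 and 2263 CPM in batch 1 against 1460 and 1209 CPM. The red blood cell list, 5 of 13 measured, averaged 4.15 ± 4.63 CPM (SD, n = 4 sections) in the female of batch 1 and under 1 CPM in the other 3 specimens. Their part in the levels of the 3 genes was not tested. Fewer cells that carry a transcript and less of it in each cell cannot be told apart in such sums.

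The make-up of the 3 genes was then described by the share of CAMP in their summed UMIs, which the total depth of a section does not enter. In batch 1 the share was 20%, 16.4%, 24.7% and 20.8% in the female and 23.7%, 19.1%, 31.1% and 28.6% in the male. In batch 2 it was 5.45%, 10.8%, 8.83% and 6.75% in the female and 0.089%, 0.080%, 1.60% and 0.56% in the male. No section of batch 2 reached the lowest of batch 1, and the 4 sections of the male lay below those of the female. Summed over sections, CAMP made 153 of 738 UMIs in the female of batch 1, or 20.7% (95% exact Clopper-Pearson interval 17.9 to 23.8), and 27.5% (23.4 to 31.9) in the male. In batch 2 it made 7.51% (6.14 to 9.08) in the female and 0.65% (0.44 to 0.93) in the male, and these intervals cover counting error only. With 2 specimens in each batch the exact two-sided permutation test over specimens gave p = 0.333, the smallest it can give, for a mean difference of 20.02 percentage points.

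**Figure D2:**
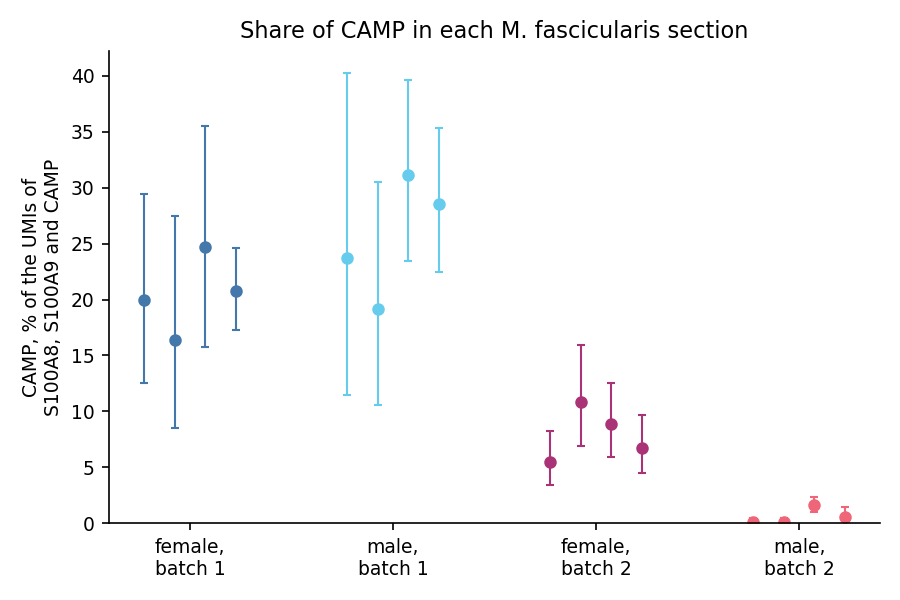
Each point is 1 *M. fascicularis* section, with the UMIs of CAMP as a percentage of the UMIs of S100A8, S100A9 and CAMP together, and bars are 95% exact Clopper-Pearson intervals. The sections of batch 1 lie between 16.4% and 31.1%, and those of batch 2 between 0.080% and 10.8%.

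The ratio of S100A8 to S100A9, the paired subunits of calprotectin, did not separate the batches. Over specimens it was 1.17 in the female and 1.37 in the male of batch 1, and 0.98 and 1.84 in batch 2. Single sections ranged from 0.62 to 3.14 in batch 1 and from 0.72 to 2.81 in batch 2. The 2 highest ratios of batch 1, 3.14 and 3.00, came from sections with 7 and 14 UMIs of S100A9.

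In spots, S100A8 was found under tissue in between 1.92% and 8.13% of the spots of the 12 sections of the first 3 *M. fascicularis* specimens, and in 31.3%, 26.8% and 22.5% of the spots of the male of batch 2. S100A9 was found in between 0.69% and 9.02% of spots in those 12 sections, and in 14.9%, 17.0% and 18.2% in that male. CAMP was found in between 0.66% and 3.83% of spots in the 12 sections, and in 1, 1 and 4 spots of the 3 sections of that male. After each spot was thinned to 200 UMIs, with shallower spots left out, S100A8 stood at 5.09%, 7.45% and 6.37% in the male of batch 2 and at 2.72% or less in the other 12 sections. For S100A8 the male thus stayed above the rest at equal depth. For S100A9 it did not in every section: at 200 UMIs the male stood at 2.03%, 4.28% and 5.08%, with section 4 of the female of batch 1 at 2.95% and section 1 of the female of batch 2 at 2.38%. On spots outside tissue, S100A8 was found in between 0.068% and 2.48% of spots in the 12 sections and in between 1.80% and 4.01% in the male of batch 2. The median there was 10.0 to 102 UMIs a spot against 398 to 5145 under tissue.

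The spread of the UMIs was described by the share held by the richest spots, which is large by count alone where UMIs are few. The richest 1% of tissue spots held between 29.4% and 72.4% of the summed UMIs of the 3 genes in the 12 sections of the first 3 specimens, and 14.0%, 15.6% and 23.9% in the male of batch 2. Those 12 sections held between 38 and 495 such UMIs, and the male of batch 2 held 1118, 1253 and 719. The 29.4% came from 68 UMIs on 63 spots, in section 2 of the male of batch 1. The shares thus cannot be compared between these specimens. The richest spot of all, in section 4 of the male of batch 1, lay at the border of the tissue and held 34 UMIs of S100A8, 27 of S100A9 and 18 of CAMP, 38.9% of the UMIs of the 3 genes in that section. That spot also held 16 UMIs of other genes of the granulocyte list. The richest spot of section 4 of the female of batch 1 held 35 UMIs and its 6 neighbours 45. In the male of batch 2 no richest spot held a UMI of CAMP.

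The number of spots shared by S100A8 and S100A9 differed among sections, as did the share of all spots with either gene. In section 4 of the female of batch 1, 39 of the 85 spots with S100A8 also had S100A9 (45.9%), against 6.18% of all spots. In the 3 sections of the male of batch 2, 26.1%, 28.5% and 41.3% of the spots with S100A8 had S100A9, against 14.9%, 17.0% and 18.2% of all spots. In section 1 of the male of batch 1, 0 of 20 spots with S100A8 had S100A9, which 0.69% of all spots had. In section 2 of that male it was 2 of 28 (7.14%) against 1.65% of all spots. In section 3 of the female of batch 1 it was 2 of 32 (6.25%) against 1.11%. CAMP sat with S100A9 in 9 of its 14 spots (64.3%) in section 1 of the female of batch 2, and in 27 of 62 (43.5%) in section 4 of the female of batch 1. In sections 1 and 2 of the male of batch 1, S100A9 shared none of its 7 and 24 spots with CAMP, which 0.89% of all spots had in each. With so few positive spots, 0 shared spots cannot set these sections apart from the others. Deeper spots hold more of every gene, and its part in this overlap was not tested.

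Spots with a UMI of the 3 genes had more positive neighbours than tissue spots at large, although many stood alone. In section 4 of the female of batch 1, 28.3% of the tissue neighbours of such spots were themselves positive, against 10.7% of all tissue spots, and 32 positive spots touched in 1 run. In the male of batch 2 the figures were 54.0% against 38.1%, 48.8% against 36.2% and 49.3% against 31.5%, with runs of 115, 90 and 60 spots. The share among neighbours was above that of all spots in each of the 15 *M. fascicularis* sections. The lowest was 6.19% against 3.46%, in section 1 of the male of batch 1, where 24 of 35 positive spots stood alone. So did 38 of 63 and 39 of 71 in sections 2 and 4 of that male, and 78 of 154 and 97 of 187 in sections 2 and 3 of the female of batch 2. In the 3 sections of the male of batch 2 lone spots numbered 37 of 545, 57 of 643 and 31 of 282. In the deep section labelled *P. anubis*, 1.44% of neighbours were positive against 1.78% of all spots, and 43 of its 47 positive spots stood alone. Positive spots were deeper in many sections. In the male of batch 2 their median UMIs were 3208, 1280 and 1746.5 against 616, 548 and 258 in the other tissue spots. In section 4 of the female of batch 1 it was 1072 against 659, and in section 3 of the female of batch 2 it was 401 against 398. The part of depth in these neighbour shares and runs was not tested.

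**Figure D3:**
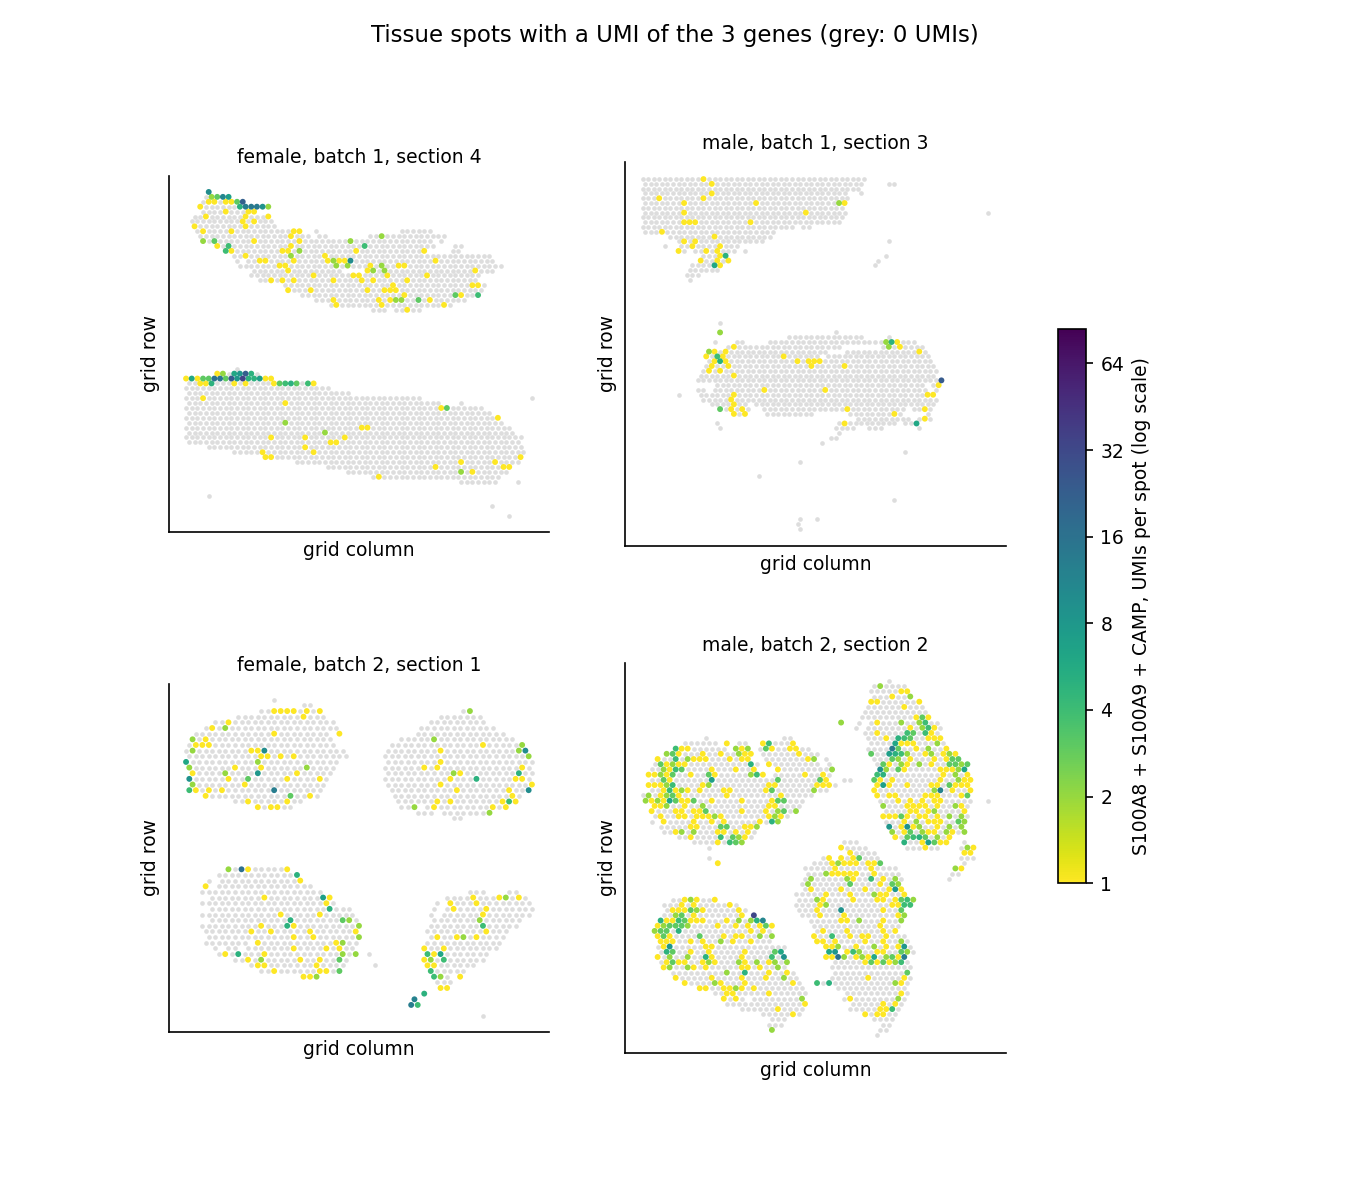
Each panel is the *M. fascicularis* section with the highest summed level of the 3 genes in its specimen among those with spot counts, which leaves out section 3 of the male of batch 2, drawn on the spot grid, with tissue spots at 0 UMIs in grey and the others coloured by summed UMIs on a log scale. Positive spots number 173 of 1617, 80 of 1212, 180 of 1242 and 643 of 1777 in the order of the panels. The richest spot holds 35, 24, 17 and 33 UMIs, and positive spots reach through the whole tissue in the male of batch 2.

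The authors' deposited tables gave Moran's I for each gene and section, a score that is above 0 where neighbouring spots are alike. For S100A8 the deposited score ranged from 0.0041 to 0.259 over the 16 *M. fascicularis* sections, with a median of 0.043, and the deposited adjusted p was below 0.05 in 11 of them. For S100A9 it ranged from -0.0019 to 0.223 with a median of 0.053, and was below 0.05 in 14 sections. For CAMP it ranged from -0.0064 to 0.192 with a median of 0.0099, and was below 0.05 in 6. In the median section 16.4% of all genes in the authors' deposited table were below 0.05. All 3 genes had their highest score in section 4 of the female of batch 1, where they ranked 25, 43 and 79 among 13999 genes. In the sections of the other 2 labels the authors' deposited scores for these genes lay between -0.0016 and 0.0017.

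The position of the genes was tested against the border of the tissue, since position had no part in their choice. Edge spots were tissue spots with at least 1 of their 6 grid neighbours outside tissue. S100A8 was at 45.4 CPM at the edge and 12.0 CPM in the interior in the female of batch 1, and at 28.5 and 5.51 CPM in the male. In batch 2 it was at 83.5 and 22.6 CPM in the female and at 376 and 322 CPM in the male. The edge was thus higher by 3.78, 5.17 and 3.69 times in the first 3 specimens and by 1.17 times in the male of batch 2, and higher in 13 of 15 sections. Over the 4 pairs of summed libraries, with the specimen as a block, S100A8 rose at the edge by 1.27 ± 0.24 on the log2 scale (adjusted p = 0.00719, edgeR quasi-likelihood).

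S100A9 rose by 1.47 ± 0.19 (adjusted p = 0.000302) and CAMP by 1.76 ± 0.23 (adjusted p = 0.000399) in the same edgeR fit. All 3 genes passed higher, where 2.58% of 11068 features did (3.39% in either direction). The ratio of edge to interior of S100A9 was 3.70, 5.93, 3.41 and 1.63 in the order of specimens above, with 13 of 15 sections higher. For CAMP it was 2.42, 6.32, 2.70 and 2.80, with 11 of 15 sections higher, and in the male of batch 2 it rested on 3 UMIs on each side. Whether the smaller ratios of S100A8 and S100A9 in the male of batch 2 differ from the others was not tested. Without the specimen block none passed (0 features in all, adjusted p = 1.00 for each), and without the female of batch 2 S100A8 missed the threshold (1.01 ± 0.26, adjusted p = 0.0604).

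The depth of edge and interior spots overlapped, with median UMIs a spot of 235 to 2344 over the sections at the edge and 343 to 8609 in the interior. With only spots of at least 1000 UMIs the edge remained higher for S100A8 (0.99 ± 0.22, adjusted p = 0.0128), S100A9 (1.22 ± 0.20, 0.00117) and CAMP (1.58 ± 0.33, 0.00854). Leaving out tissue pieces of fewer than 50 touching spots, which held 315 spots and 70 UMIs of the 3 genes, gave 1.25, 1.40 and 1.69 in the same order. Leaving out the richest spot of each section gave 1.15, 1.31 and 1.56, all past the threshold in the edgeR fit.

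The share of positive spots that lay at the edge gave a weaker picture. In *M. fascicularis*, 32.9% of the spots with S100A8 were edge spots against 24.8% of all tissue spots, a difference of 8.06 ± 4.09 percentage points (SD over 4 specimens). The difference was 10.5 ± 6.53 points for S100A9 and 10.7 ± 9.36 for CAMP, each above 0 in 4 of 4 specimens. For CAMP it was 0.42 points in the female and 6.62 in the male of batch 1, and 13.6 and 22.2 in batch 2. The value of the male of batch 2 rested on sections with 1, 1 and 4 positive spots. An exact two-sided sign-flip permutation test over 4 specimens gave p = 0.125 for each gene, the smallest it can give. Over all specimens with a positive spot the differences were 1.35 (p = 0.781, 6 specimens), 5.71 (p = 0.313, 5 specimens) and 7.42 points (p = 0.188, 5 specimens), in the same exact permutation test. The specimens of the other labels, with between 1 and 47 positive spots a section, had fewer of them at the edge than of all spots. Both sections labelled *M. mulatta* had 1 positive spot, of S100A8, and 0% of these lay at the edge against 14.2% of all spots. The test weighs every specimen alike, so the differences over all specimens rest in part on single spots. No position is read from them.

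By steps from the border, the level was lower farther inward in 3 specimens. In the female of batch 1, S100A8 went from 45.4 CPM in edge spots to 24.0 CPM at the second step inside and 2.56 CPM at 6 or more steps. In the female of batch 2 it went from 83.5 to 33.2 and 19.1 CPM, and in the male of batch 1 from 28.5 to 9.06 and 3.72 CPM. In the male of batch 2 it was at 376, 346 and 360 CPM, with no such slope, while S100A9 went from 219 to 160 and 125 CPM. The neuron list went from 30902 CPM at the edge to 32540 CPM at 6 or more steps in the female of batch 1, and from 31265 to 29378 CPM in the male. In the female of batch 2 it went from 32102 to 29912 CPM. In these 3 specimens it changed little beside S100A8. In the male of batch 2 it went from 25066 to 20768 CPM, a larger relative change than that of S100A8 there. The fibroblast list went from 4197 to 2758 CPM over those bins in the female of batch 2, from 5638 to 7190 CPM in the female of batch 1, and from 1467 to 1614 CPM in the male of batch 2. The part of these cell types in the edge difference was not tested.

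Spots outside tissue were sequenced too, and the relative level of the genes there was set against that under tissue. Where the RNA on those spots came from was not tested. S100A8 made up 78.4 CPM outside against 19.0 CPM under tissue in the female of batch 1, 24.4 against 9.66 in the male, 486 against 31.2 in the female of batch 2, and 427 against 336 in the male. S100A9 was at 70.4 against 16.3, 18.0 against 7.06, 466 against 31.8 and 363 against 156 CPM. CAMP was at 27.9 against 9.25, 6.41 against 6.34, 58.0 against 5.11 and 10.0 against 0.96 CPM. The last pair rested on 8 UMIs outside and 6 under tissue, and the value outside in the male of batch 1 on 10 UMIs. The share of the genes among the UMIs was higher outside in 13 of 15 sections for S100A8, in 15 for S100A9 and in 11 for CAMP, and CAMP in the male of batch 1 stood alike on both sides.

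In the paired edgeR fit, S100A8 rose outside by 1.97 ± 0.30 (adjusted p = 4.23e-05), S100A9 by 2.28 ± 0.25 (1.64e-07) and CAMP by 1.92 ± 0.35 (0.000308), where 7.97% of 11406 features passed higher and 4.52% lower (12.5% in all). The absolute number was lower outside: per 1000 spots the 3 genes had 24.3 UMIs outside against 162 under tissue in the female of batch 1, 5.13 against 86.4 in the male, 44.0 against 161 in the female of batch 2, and 58.8 against 753 in the male. By DESeq2, S100A8 (adjusted p = 0.0622) and CAMP (0.0554) missed the threshold and S100A9 kept it (0.0056). In the female of batch 2, S100A8 was at 591 CPM 1 step outside, 630 CPM at 2 steps and 145 CPM at 6 or more, while the neuron list was at 32102 CPM at the edge and 23160 CPM at 1 step outside.

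**Figure D4:**
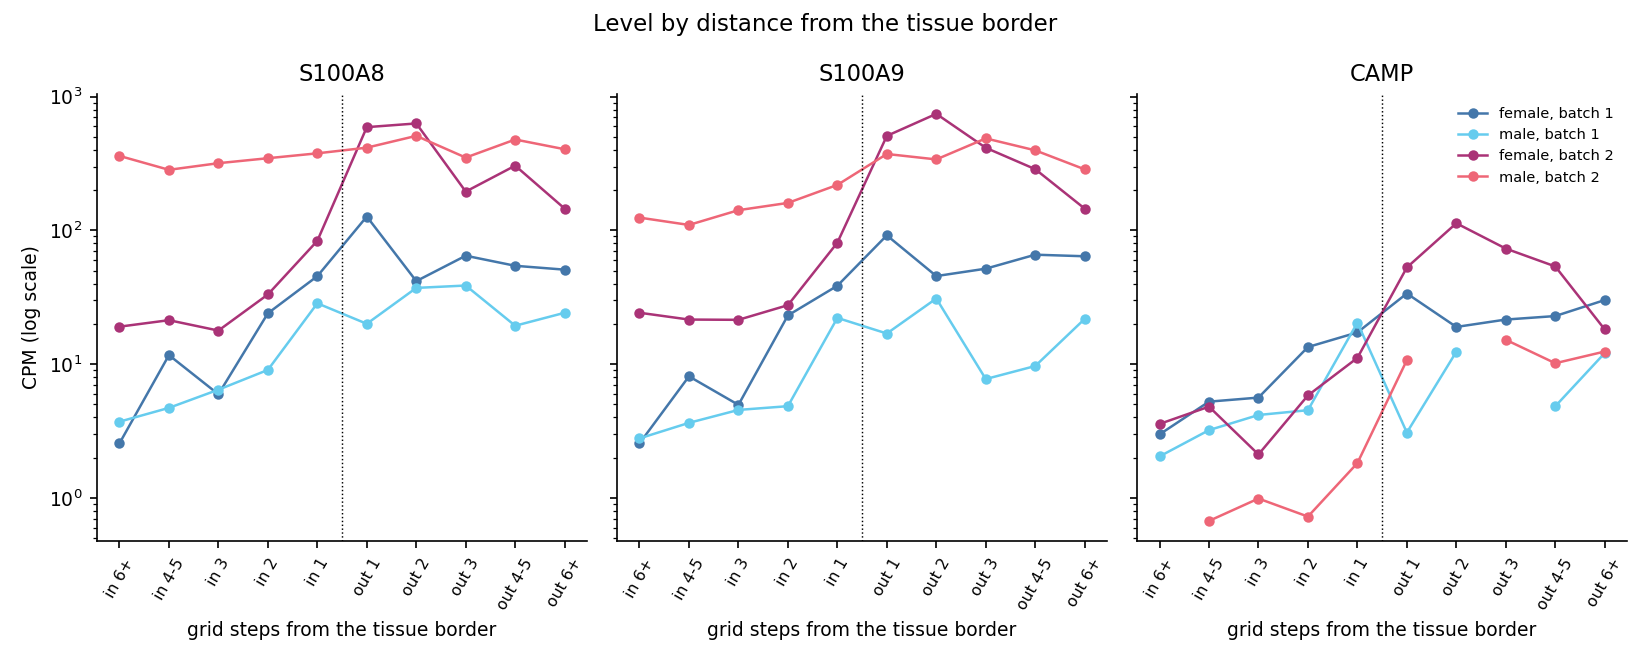
Lines give the level of each gene, as CPM on a log axis over the summed spots of a specimen, by grid steps inside (in) and outside (out) the tissue border, which is the dotted line; bins with 0 UMIs are left blank. S100A8 in the female of batch 2 climbs from 19.1 CPM at 6 or more steps inside to 630 CPM at 2 steps outside, and in the male of batch 2 it stays between 283 and 376 CPM inside.

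Spots rich in neuron transcripts were compared next, as the 25% of tissue spots with the highest share of neuron-list UMIs in each section against the other spots, all with at least 200 UMIs. S100A8 was at 6.03 CPM in the neuron-rich spots and 27.4 CPM in the others in the female of batch 1, 6.25 and 12.3 CPM in the male, 14.3 and 48.0 CPM in the female of batch 2, and 298 and 351 CPM in the male. As a share of the UMIs it fell in neuron-rich spots by a fitted -0.98 ± 0.20 (adjusted p = 0.000848, edgeR). The shares of S100A9 and CAMP fell by fitted values of -0.79 ± 0.23 (0.00991) and -1.26 ± 0.22 (0.00021) in the edgeR test. The background is large here: 22.1% of 12125 features passed lower and 42.2% in either direction. In the male of batch 2, S100A9 was higher in neuron-rich spots in 3 of 3 sections, at 168 against 150 CPM, and CAMP rested on 3 UMIs on each side. S100A9 missed the threshold by DESeq2 (adjusted p = 0.0853) and without the female of batch 2 (0.206).

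Neuron-rich spots were deeper, with median UMIs of 943 to 11969 over the sections against 415 to 5094. The number of UMIs a spot did not follow the CPM. Per 1000 spots the 3 genes had 111 UMIs in neuron-rich spots against 208 in the others in the female of batch 1. In the male of batch 1 they had 102 against 83.2. In batch 2 they had 213 against 190 in the female and 986 against 845 in the male. Shares of spots with a UMI of S100A8 went the other way from the CPM in some sections, such as 13.2% of neuron-rich spots against 9.49% of the others in section 1 of the female of batch 2, so no order is read from them. With at least 1000 UMIs in every spot the fitted differences were -0.62 for S100A8, -0.51 for S100A9 and -1.15 for CAMP, all past the threshold.

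Spots with at least 1 UMI of the endothelium list had fitted differences of -0.44 ± 0.14 for S100A8 (adjusted p = 0.0337), -0.65 ± 0.17 for S100A9 (0.00985) and -0.65 ± 0.25 for CAMP (0.0802), with edgeR, where 17.6% of 11528 features passed, 7.12% higher and 10.5% lower. Depth moved with this split, as endothelium-positive spots had medians of 1265 to 10412 UMIs against 410 to 1605. With only spots of at least 1000 UMIs the values were 0.05, 0.01 and 0.66, above 0, with an adjusted p of 0.940, 0.983 and 0.0979. The ratio between the spot classes differed among specimens. It was 0.32, 1.06, 0.69 and 0.96 for S100A8 in the order above. S100A8 kept its call in 6 of the 15 fits that left out 1 section, and leaving out section 4 of the female of batch 1 gave -0.16 (adjusted p = 0.243) for S100A8 and 0.09 (0.853) for CAMP.

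**Figure D5:**
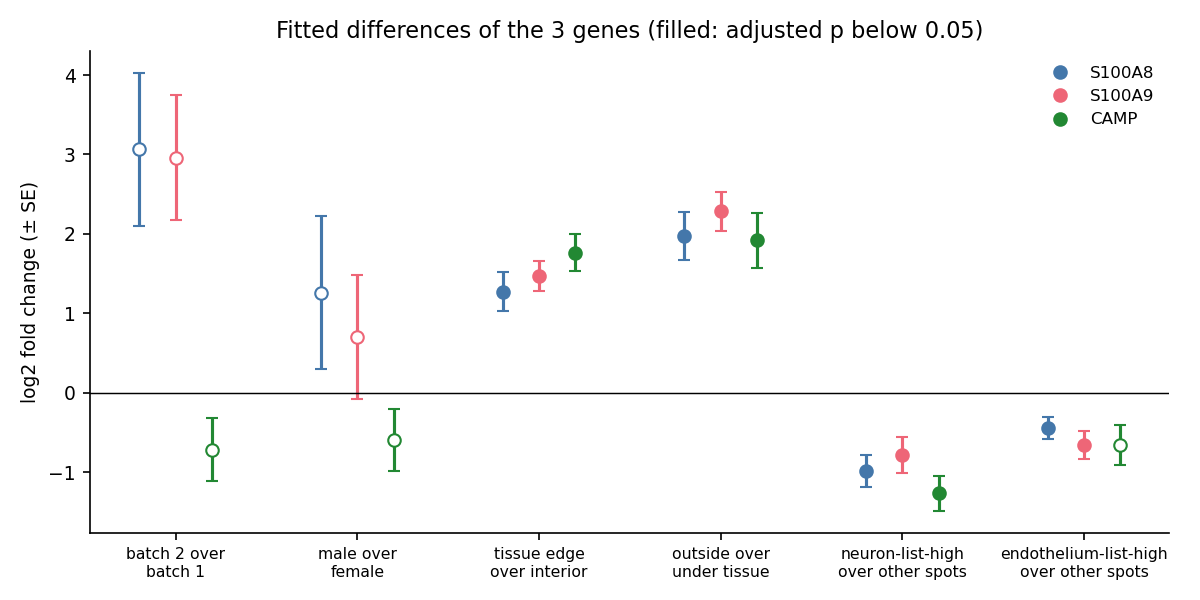
Points are fitted log2 fold changes of S100A8, S100A9 and CAMP in 6 comparisons of summed *M. fascicularis* libraries, bars are ± 1 SE, and filled points passed an adjusted p of 0.05 in edgeR. The 3 genes lie above 0 at the tissue edge (1.27 to 1.76) and outside tissue (1.92 to 2.28), and below 0 in neuron-rich spots.

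The other genes of the granulocyte list put these levels in context. Of its 40 genes besides these 3, 28 were measured in *M. fascicularis*, 13 had at least 50 UMIs under tissue, and MMP8, CEACAM8 and CXCR1 had 0. MPO, the peroxidase of primary granules, had 2 UMIs over all 16 sections, CTSG 8 and AZU1 31. These 6 genes were chosen for mention after their values were seen. S100A12, a close relative of S100A8 and S100A9, averaged 0.88, 0.29, 1.56 and 3.70 CPM in the 4 specimens, and the granule protein lactoferrin, LTF, 3.12, 1.88, 2.82 and 0.92 CPM. CXCL8, a chemokine that draws neutrophils, averaged 34.7 ± 6.95 CPM in the male of batch 2 (SD, n = 4 sections) against 8.74 ± 12.1, 3.77 ± 3.31 and 2.29 ± 1.27 in the others. Many genes of the list are not particular to granulocytes, and CHI3L1, LYZ and ALPL held most of its UMIs.

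In the batch fit, where 1.26% of all features rose and 1.61% fell, 1 of 15 tested genes of the list rose, CHI3L1, a secreted chitinase-like protein (4.44 ± 0.31, adjusted p = 0.000831, edgeR), and 1 fell, ALPL (-1.32, adjusted p = 0.0230); the median was 0.80 against -0.01 over all features. At the tissue edge, where 2.58% of all features rose, 3 of 10 did: LTF (2.12 ± 0.35, adjusted p = 0.00209 in edgeR), CXCL8 (1.04 ± 0.23, 0.0184) and CHI3L1 (0.87 ± 0.17, 0.00719). LYZ, lysozyme, which macrophages also make, fell by a fitted -0.40 ± 0.07 (0.00333). The median was 0.57 against -0.002. Outside tissue, where 7.97% of all features rose, 5 of 12 did, among them LTF (2.31) and MMP9, the gelatinase of neutrophil granules (2.23), and LYZ fell (-0.73); the median was 0.92 against -0.01. In neuron-rich spots 0 rose and 5 of 14 fell, where 22.1% of all features fell, with a median of -0.30 against -0.04. In endothelium-positive spots 0 rose and 1 of 12 fell, a share near the 10.5% of all features, with a median of -0.26 against -0.004.

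Of the 18 partner genes of calprotectin and cathelicidin, among them receptors, the oxidase that S100A8 and S100A9 feed, and factors that drive their transcription, 9 were measured and 6 had at least 50 UMIs. TLR4, the receptor for calprotectin, averaged 22.1 and 17.6 CPM in batch 1 and 5.95 and 15.2 CPM in batch 2, and did not pass in the batch fit (-0.88, adjusted p = 0.265, edgeR). CD36, a scavenger receptor that binds fatty acids carried by calprotectin, fell in batch 2 (-2.38, adjusted p = 0.0166, edgeR). It was the only 1 of 6 tested to pass, where 1.61% of all features fell and 2.88% passed. CYBB, the membrane subunit of the phagocyte oxidase, fell in neuron-rich spots (-0.49, adjusted p = 0.00177, edgeR), where 22.1% of all features fell. It rose outside tissue (0.58, 0.0210), where 7.97% of all features rose. At the edge 0 of 5 partners passed by edgeR, where 3.39% of all features did, so so few genes would seldom hold a call.

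Spots with a UMI of any of the 3 genes were set against the other tissue spots of the same section for the cell type lists, as a description. The rest of the granulocyte list was higher in them in 4 of 4 specimens and 14 of 15 sections, at 303 against 231 CPM, 346 against 280, 416 against 315 and 599 against 558 CPM. The list of myelinating Schwann cells was lower in 15 of 15 sections, at 3936 against 5383, 3328 against 4526, 1290 against 1775 and 1702 against 2790 CPM. The macrophage list was higher in 12 of 15 sections, and the fibroblast list in 4. The endothelium list was also higher in 12 of 15 sections and 3 of 4 specimens, at 355 against 284, 333 against 274 and 295 against 233 CPM, and lower in the male of batch 2, at 250 against 286 CPM. The red blood cell list was at 17.0 against 1.55 CPM in the female of batch 1, and was not found in the positive spots of batch 2.

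Genes whose pattern over spots was most like the sum of the 3 were named by the median Pearson correlation within sections, over spots with at least 200 UMIs, among 8135 genes in up to 15 *M. fascicularis* sections. The correlations were weak. FABP4, a fatty acid-binding protein of adipocytes and capillary endothelium, was first with a median of 0.12 (0.018 to 0.30 over 10 sections), followed by DUSP1 (0.081) and AEBP1 (0.076). FBLN1, EFEMP1, EEF1A1, COL1A1, IFITM1, TXNIP and TAGLN made up the rest of the first 10, down to 0.060, and the median over all genes was -0.004. With at least 1000 UMIs a spot, 3 of the 10 stayed among the first 10. Spots of a section share a library and differ in depth, and in counts this sparse such values describe the sections only. Among 4 granulocyte-list genes that could be ranked, ITGAM, a subunit of the integrin of myeloid cells, stood highest, at rank 372 with 0.022.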

How the data were processed

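Fresh frozen dorsal root ganglia were profiled with Visium. The authors deposited UMI counts for every gene at every spot. Per the file headers, Space Ranger wrote 12 sections in version 2.0.0 and 7 in 2.1.0, and the submitters' processing notes name Mmul_10. The authors also deposited, for each section, gene totals as counts, Moran's I as a score, its p-value, an adjusted p-value and a median-normalized mean signal per spot, which was not used; the annotation is not given in the sources used here. The 3 genes and all lists were chosen with earlier results of these data known. Counts were summed by specimen, or by specimen and spot class, and tested with edgeR 4.0.16 (TMM scaling, filterByExpr, quasi-likelihood F-test, Benjamini-Hochberg adjusted p under 0.05), with batch and sex in 1 fit and the specimen as a block in comparisons of spots. The share of CAMP and the position of spots were tested with exact permutation tests over specimens. Spot classes by neuron or endothelium list took spots of at least 200 UMIs. Nothing in the labels says which sections came from separate animals, so p-values measure the spread between these libraries. Alternatives were DESeq2 1.42.0, other scaling, filters, spot limits and left-out sections or specimens. On simulated counts with 200 changed genes, the fit recovered 76% of 4-fold and 26% of 2-fold changes in the batch comparison, and 97% and 94% at the tissue edge. The other cell type lists were summed the same way, and those that bear on a result are given. Genes were named if they were 1 of the 3, had at least 50 UMIs and stood in the granulocyte or partner list, or were among the 10 most alike in pattern; 6 granulocyte genes with fewer UMIs were named besides. Deviations of same-numbered sections correlated in all 4 pairs of the 2 specimens of batch 1 (0.238 to 0.431), but not in all pairs across batches or in batch 2. In batch 1, section 1 with 2 and section 3 with 4 correlated as well, so this likeness was not by number alone. Total UMIs set the precision of each level, and intervals cover counting error only.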

Additional observations from a re-analysis of the deposited data

Results flagged for a closer look

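Among 37 groups of 4 sections, 4 held a section that stood apart from the other 3 by Dixon's criterion, which chance gives in about 1 of 20 groups. In the female of batch 1, section 4 stood apart with a deposited Moran's I of 0.223 for S100A9 and 0.192 for CAMP. In the male of batch 2, section 3 stood apart with a Moran's I of 0.037 for CAMP, and that section held 24 of the specimen's 30 CAMP UMIs. In the female of batch 2, section 2 was low for S100A8, at 13.5 CPM, and it was also the section with the most tissue spots, 2587.

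The difference of male over female was larger in batch 2 than in batch 1 by 4.55 on the log2 scale for S100A8 (adjusted p = 0.000299) and by 4.04 for S100A9 (adjusted p = 0.00628) in edgeR's quasi-likelihood test, where 18.0% of 11063 features passed. For CAMP it was 0.16 (adjusted p = 0.944). Sections were the samples in this fit and 4 share each specimen, so these p-values are too small, and sex and batch stand for single animals there.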

How the results depend on the processing

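Leaving out 1 section at a time, the batch comparison called between 115 and 942 features, S100A8 ranged from 2.80 to 3.67, S100A9 from 2.64 to 3.71 and CAMP from -1.44 to -0.09. Sex gave CAMP -1.31 to 0.037, the difference of sex differences gave CAMP -1.75 to 0.71, and endothelium-positive spots gave S100A8 -0.53 to -0.16 and CAMP -0.90 to 0.093, while the 3 genes kept their calls at the tissue edge, outside tissue and in neuron-rich spots. Leave-one-out means ranged from 11.4 to 26.5, 11.8 to 27.0 and 5.78 to 13.7 CPM for S100A8, S100A9 and CAMP in the female of batch 1. With no filter on low counts the batch fit called 1279 features (S100A8 3.05, S100A9 2.94), sex 67 and the edge 704, and CAMP passed in endothelium-positive spots (-0.63).

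With sections as samples the batch fit called 4345 features (S100A8 3.07, S100A9 2.90) and the sex fit 8. With section number as a replicate block it called 4448 (S100A8 3.31, S100A9 3.16) and sex 5; same-numbered sections deviated together between the female and the male of batch 1 (0.251, 0.238, 0.431 and 0.401), where differently numbered ones ranged from -0.521 to 0.538, but not in every pair across the batches this fit compares, and sections of 1 specimen are not independent.

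The following were chosen after seeing the data. Without 1 specimen and the sex term, the batch fit called 174 features (male of batch 1 left out), 4756 (female of batch 2) and 6849 (male of batch 2); S100A8 was 4.37 without the female and 3.39 without the male of batch 1, and 4.69 and 1.32 without those of batch 2; S100A9 was 4.04, 2.84, 4.11 and 1.65, and CAMP -1.06 without the female of batch 2. The edge fit called 173 without the male of batch 1, and S100A8 was 1.01 without the female of batch 2. S100A9 in neuron-rich spots was -0.46 without the female of batch 2. Endothelium-positive spots gave 1074 calls without the female and 997 without the male of batch 1, S100A8 -0.19 and -0.37 without the females of batch 1 and 2, and CAMP -1.20 without the male of batch 1. Outside tissue gave 610, 409 and 2139 calls without the female and male of batch 1 and the male of batch 2.

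DESeq2 called 199 features at the edge, 3332 in neuron-rich spots (S100A9 -1.02), 810 in endothelium-positive spots (S100A8 -0.53, S100A9 -0.65) and 810 outside tissue (S100A8 1.93, CAMP 2.17). Without the specimen block the edge gave 0 calls, with S100A8 at 0.58, S100A9 at 1.09 and CAMP at 1.71. In endothelium-positive spots of at least 1000 UMIs there were 946 calls, S100A8 turned to 0.045, S100A9 to 0.0067 and CAMP to 0.66, and with at least 2 list UMIs CAMP was -0.74. An edge of 2 steps turned the position difference over all specimens to -0.470 points for S100A8 and -1.92 for the sum. Over genes shared by all 3 annotations, mean CPM was 14.3 for S100A8 in the male of batch 1, 53.1, 53.6 and 8.57 for the 3 genes in the female of batch 2, 580 for S100A8 and 335 for S100A9 in the male of batch 2, 8.84 for S100A8 under the label *M. mulatta* and 2.78 for CAMP under *P. anubis*. Over all spots it was 45.2, 44.5 and 6.71 in the female of batch 2, and 16.3 for S100A8 and 3.80 for CAMP under the label *M. mulatta*. The cause of these changes was not tested.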
